A study of Schizocardium californicum with 12 samples.

Results

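Of the 27463 genes counted in the hemichordate *Schizocardium californicum*, 5 are described here: the piwi genes Piwl1-1 and Piwl1-2, the vasa gene Ddx4, the nanos gene Nano1 and the spindle-E gene Spne-2. They were taken by name from the table of every library, and all 5 passed the filter on low counts that left 20780 genes for testing. The 12 RNA-seq libraries were made from whole animals, with 3 libraries for each stage and treatment. Larvae received 120 Gy and juveniles 200 Gy of X-ray irradiation, and the controls were unirradiated animals of the same stage. RNA was taken 3 days after irradiation, each library came from a pool of 5 animals, and the study calls the 3 libraries of a group independent biological replicates. Larvae are the swimming tornaria stage and juveniles the young worms after metamorphosis. Because the dose differed between larvae and juveniles, a comparison of their responses cannot tell stage from dose. A fall in a whole-animal pool can mean fewer cells that express a gene or less RNA per cell, and these cannot be told apart here. The ages of the animals were not given in the sources used here.

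Piwi proteins are Argonaute-family proteins that carry piRNAs, short guide RNAs that direct the silencing of transposable elements. Vasa is a DEAD-box RNA helicase of germ granules that takes part in piRNA production, and spindle-E is, in Drosophila, a helicase with a Tudor domain that the germline needs to make piRNAs. Nanos is an RNA-binding protein that represses translation in germ cells. In planarians, Hydra and other regenerating animals, genes of these families are expressed in stem cells as well as in the germline, and in planarians irradiation removes those stem cells with their transcripts. The comparison of irradiated with control animals asks whether the levels of these transcripts differ 3 days after irradiation. A loss of dividing cells cannot be told apart from other effects of irradiation in it. For traf2, tlr2 and tlr6 in juveniles the study holds an immune reaction to be the more likely reason.

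Reads counted on genes ranged from 7675726 to 26974509 per library, with medians of 12036921 (control) and 12342866 (irradiated) in larvae and of 10544816 (control) and 13769853 (irradiated) in juveniles. Levels are given as normalized counts, which are reads divided by the effective library size and brought to a common size of 13815273 reads, and as TPM, a share of all transcripts after division by their lengths, where genes are compared with each other. Log2 fold changes come from edgeR's quasi-likelihood test over all 20780 genes, and a gene was called at a Benjamini-Hochberg adjusted p of 0.05 or less. Proliferation genes were used to check the treatment. Of 27 tested, edgeR called 13 lower and none higher in irradiated larvae (2.05% and 1.87% of all genes tested). In irradiated juveniles it called 16 of the 27 lower and 1 higher (11.1% and 10.8% of all genes tested). Their summed level lay between 8192 and 9177 normalized counts in control larvae and between 5184 and 5425 in irradiated larvae. In juveniles it lay between 5091 and 6706 in controls and between 3770 and 3991 after irradiation. As a check of the stage, 19 muscle genes summed to between 412 and 476 TPM in control larvae and to between 2159 and 2369 TPM in control juveniles. In normalized counts these sums were 10261 to 12368 in control larvae and 21977 to 24394 in control juveniles. EdgeR called 11 of the 16 tested higher and 3 lower in control juveniles (32.8% and 29.8% of all genes tested).

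The 5 genes behaved differently from each other. Spne-2 fell after irradiation, 12.8-fold in juveniles, and was the only one of the 5 that edgeR called in an irradiation comparison within a stage. From these same libraries the study had reported Spne-2 among its significant juvenile genes, and piwi, vasa and nanos as not significantly changed. The contrast between Spne-2 and the other genes is therefore no independent evidence. Nano1 was by far the most abundant per length, and edgeR called neither Nano1 nor Ddx4 in any comparison. The piwi genes had opposite stage patterns: Piwl1-1 was 4.01-fold higher and Piwl1-2 1.71-fold lower in control juveniles than in control larvae. Of the 5 genes edgeR called 0 in irradiated larvae, where 3.92% of all genes tested were called (2.05% lower and 1.87% higher), and 1 in irradiated juveniles, where 21.9% were called. At an unadjusted p under 0.05, 3 of the 5 passed in larvae (Piwl1-2, Nano1 and Spne-2), as did 4136 of all 20780 genes tested. DESeq2 called 1 of the 5 in larvae, Spne-2, and limma voom called 0. The test of the difference between the responses called 0 of the 5 in edgeR, DESeq2 and limma voom, with 0 at an unadjusted p under 0.05, where edgeR called 3.47% of all genes. At that unadjusted p, 4081 of all 20780 genes tested passed in this comparison. In the mean of both responses edgeR called Spne-2 alone (21.1% of all genes), while DESeq2 called 3 of the 5 and limma voom 2. The counts of DESeq2 and limma voom are given here without their shares over all genes.

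**Figure D1:**
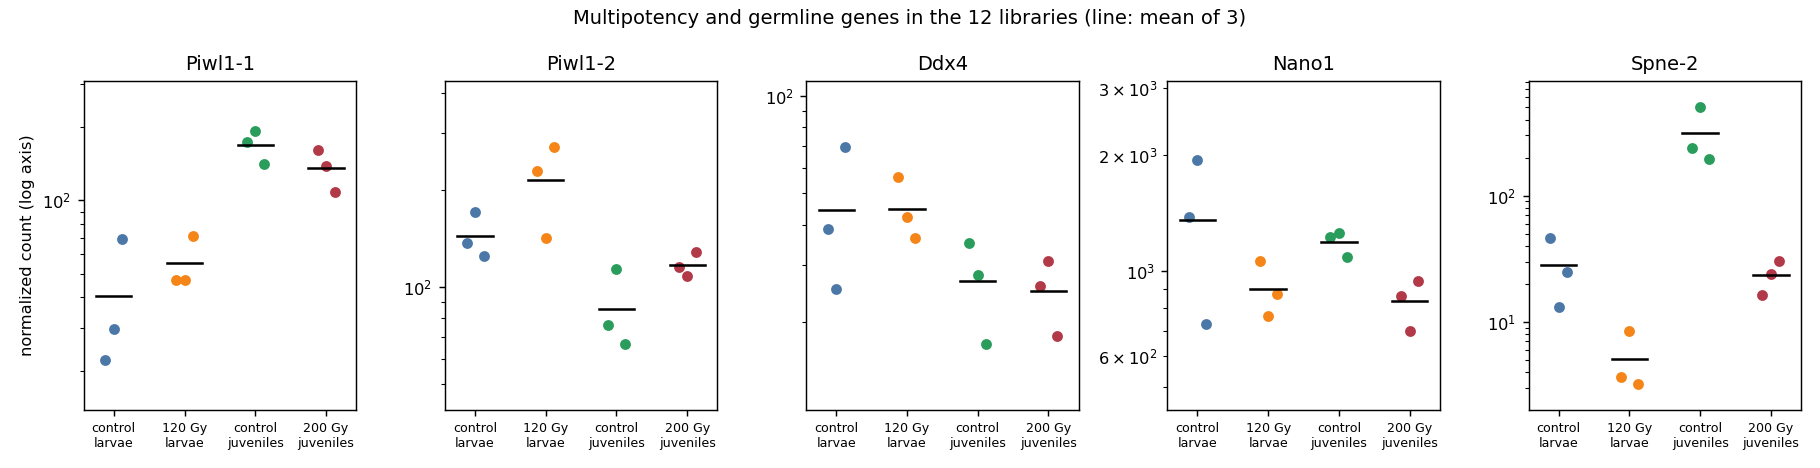
Normalized counts (log axis) of the 5 genes in the 12 libraries, by group; each point is 1 library and each line the mean of 3. Spne-2 is the one gene whose irradiated libraries all lie below the controls in both stages, and the piwi genes Piwl1-1 and Piwl1-2 differ between the stages in opposite directions.

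In TPM, Nano1 stood first in every group. In larvae it averaged 99.8 ± 50.0 TPM (SD, n = 3) without and 68.4 ± 12.9 with irradiation, and in juveniles 76.4 ± 4.68 without and 52.2 ± 8.11 with irradiation. In the single libraries Nano1 lay between the 89.4th and the 96.7th percentile of all genes by TPM. In control larvae Piwl1-2 came next at 4.67 ± 1.10 TPM, followed by Ddx4 at 2.20 ± 0.965, Spne-2 at 1.35 ± 0.739 and Piwl1-1 at 1.27 ± 0.815, and the ranges of these last genes overlapped their neighbours. In control juveniles the order was different. Spne-2 followed Nano1 at 14.4 ± 6.96 TPM, Piwl1-1 came next at 4.94 ± 0.602, and Piwl1-2 at 2.37 ± 0.642 overlapped Ddx4 at 1.41 ± 0.463. After irradiation Spne-2 was last in both stages, at 0.200 ± 0.172 TPM in larvae, below all values of Piwl1-1 (1.64 ± 0.646), and at 1.04 ± 0.324 TPM in juveniles, where it overlapped Ddx4 (1.26 ± 0.446).

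The piwi genes come first because they encode the proteins that bind piRNAs. Piwl1-1 (SCA20789, sequence chr16A_Sc2 of the v2.0 genome, 20 exons) held 22.1, 29.7 and 69.4 normalized counts in control larvae and 47.3, 47.0 and 71.8 in irradiated larvae. The groups overlapped, and the control libraries differed from each other more than the irradiated ones did. In juveniles the values were 174, 193 and 142 in controls and 161, 139 and 109 after irradiation. These groups also overlapped, but every juvenile library was above every larval library. The log2 fold change after irradiation was 0.40 in larvae (95% interval -0.37 to 1.16, edgeR adjusted p = 0.589) and -0.32 in juveniles (interval -0.99 to 0.35, adjusted p = 0.505). Without control larva 3, the highest control, the larval value was 1.06 and was still not called (edgeR adjusted p = 0.0990). The difference between the responses was -0.71 on the log2 scale (adjusted p = 0.436). Between the stages, Piwl1-1 was higher in control juveniles by a log2 fold change of 2.01 ± 0.34 (SE, edgeR adjusted p = 2.1e-04).

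Piwl1-2 (SCA24986, chr6A_Sc2, 19 exons) held 137, 171 and 124 normalized counts in control larvae and 228, 142 and 272 in irradiated larvae. One irradiated library fell within the control range, so that the groups overlapped. In juveniles the controls held 76.5, 114 and 66.7 and the irradiated libraries 115, 108 and 128, and again a single pair of libraries made the groups overlap. The log2 fold change was 0.57 in larvae (interval 0.04 to 1.11, unadjusted p = 0.0377, edgeR adjusted p = 0.221) and 0.48 in juveniles (interval -0.08 to 1.04, adjusted p = 0.206). The mean of both responses was 0.53 ± 0.18 (SE), with an adjusted p of 0.0524 by edgeR, just outside the threshold. DESeq2 gave this mean as 0.51 with an adjusted p of 0.0459 and limma voom as 0.57 with an adjusted p of 0.0436. EdgeR thus called no irradiation response of Piwl1-2, while the other tools called its mean response.

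Control juveniles had less Piwl1-2 than control larvae, by a log2 fold change of -0.78 ± 0.26 (SE, edgeR adjusted p = 0.0192), with no overlap between the groups. This call was lost without control larva 2 (adjusted p = 0.0798), without control juvenile 1 (0.0606) and without control juvenile 3 (0.0881), while the log2 fold change stayed between -1.02 and -0.61. The stage comparison called many genes: 62.6% of all genes tested differed between control juveniles and control larvae, 32.8% higher and 29.8% lower in juveniles, and 67.6% had groups that did not overlap. Of the 5 genes, 3 were called in it (Piwl1-1 and Spne-2 higher, Piwl1-2 lower).

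The ratio of the piwi genes within each library restates these stage differences on a scale that does not depend on normalization. It does not show which of the genes differs, and it is no independent evidence of the fall of Piwl1-2. The log2 ratio of Piwl1-1 reads to Piwl1-2 reads (0.5 added to each) was -2.58, -2.51 and -0.84 in control larvae and -2.26, -1.58 and -1.91 in irradiated larvae. It was 1.18, 0.76 and 1.08 in control juveniles and 0.48, 0.36 and -0.24 in irradiated juveniles. All 6 juvenile libraries were above all 6 larval libraries. Averaged over the control and the irradiated animals, the juvenile minus larval difference in mean log2 ratio was 2.55, a 5.86-fold difference. A two-sided exact permutation test over 400 regroupings within treatments gave p = 0.005, the smallest p these can give. In the irradiated part of this average the dose differs with the stage. In controls alone the mean log2 ratio was 1.01 in juveniles and -1.97 in larvae, and this difference was not tested by itself. Ratios of reads are not corrected for the lengths of the genes, so only the differences between libraries are compared. Within juveniles the ratio was lower after irradiation by 0.81 on the log2 scale with no overlap between the groups (exact permutation p = 0.10, the smallest that 3 against 3 libraries allow). Within larvae it differed by 0.05 (exact permutation p = 1.0).

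**Figure D2:**
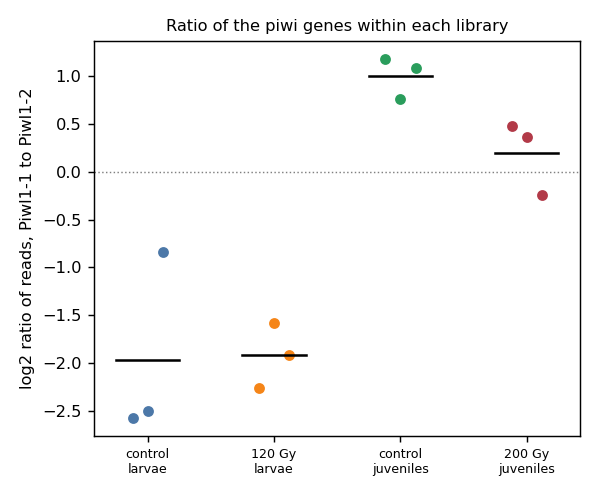
Log2 ratio of Piwl1-1 reads to Piwl1-2 reads in each library, by group; points are libraries, lines are means of 3 and the dotted line marks equal reads. All juvenile libraries lie above all larval libraries, and in larvae every ratio is below 0.

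No other tested gene of the Argonaute and piwi families showed a called response to irradiation, against 3.92% of all genes tested in larvae and 21.9% in juveniles. Piwl2-1 held 78.9 ± 12.5 normalized counts (SD, n = 3) in control larvae and 46.5 ± 6.55 in control juveniles, lower in juveniles by a log2 fold change of -0.78 (edgeR adjusted p = 0.0183). Its response was -0.31 in larvae (adjusted p = 0.542) and -0.07 in juveniles (0.894). Piwl1-3 held only 16.1 ± 5.13 normalized counts in control larvae and 10.1 ± 3.42 in control juveniles and was called in no comparison. Irradiated juveniles held 5.20 ± 0.776 of it, without overlap with their controls, which 40.7% of all genes tested showed in one direction or the other. Piwl2-2 was too low to be tested, at 12.0 ± 2.38 normalized counts in control larvae and 2.77 ± 2.57 in irradiated larvae. Ago2, the Argonaute of small-RNA silencing outside the piRNA pathway in flies, was abundant at 1557 ± 103 normalized counts in control larvae and 1197 ± 37.0 in control juveniles. It was lower in juveniles by -0.38 on the log2 scale (edgeR adjusted p = 0.00626), with responses of 0.19 in larvae (0.342) and -0.22 in juveniles (0.158).

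The vasa gene Ddx4 (SCA00443, chr8A_Sc2, 16 exons) had the fewest reads in all, 408 over the 12 libraries. It held 38.7, 25.3 and 69.4 normalized counts in control larvae and 56.0, 42.1 and 36.4 in irradiated larvae, with all irradiated libraries inside the control range. The juvenile values were 35.0, 28.0 and 17.2 in controls and 25.9, 30.9 and 18.1 after irradiation, which overlapped in the same way. The log2 fold change was 0.01 in larvae (interval -0.83 to 0.84, edgeR adjusted p = 1.0) and -0.10 in juveniles (interval -1.0 to 0.80, adjusted p = 0.896). The sign of these values differed between settings, and the intervals leave room for changes of up to about 0.8 in larvae and 1.0 in juveniles on the log2 scale. Control juveniles lay at -0.78 relative to control larvae (interval -1.66 to 0.10, adjusted p = 0.111), with overlapping groups. Without control larva 2 this stage difference was -1.08 and was called (edgeR adjusted p = 0.0341).

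Nano1 (SCA19869, chr7A_Sc2, 1 exon) is annotated without introns, and all of its 12606 reads were uniquely placed. Control larvae held 1386, 1951 and 729 normalized counts and irradiated larvae 1065, 766 and 870. Control larva 3 was below all 3 irradiated libraries, and the other control larvae were above them. In juveniles the controls held 1226, 1260 and 1091 and the irradiated libraries 861, 698 and 944, with no overlap. Groups without overlap were common in juveniles, where 40.7% of all genes tested had them. The log2 fold change was -0.59 in larvae (interval -1.17 to -0.01, unadjusted p = 0.0465, edgeR adjusted p = 0.243) and -0.51 in juveniles (interval -1.09 to 0.06, adjusted p = 0.194). The mean of both was -0.55 ± 0.19 (SE, edgeR adjusted p = 0.0550), and DESeq2 gave -0.56 with an adjusted p of 0.0233.

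The larval value of Nano1 depended on which control larva was left out. Without control larva 3 the log2 fold change in larvae was -0.89 and was called (edgeR adjusted p = 0.0327), and without control larva 2 it was -0.22 (adjusted p = 0.688). Control larva 3 was also the highest control larva for Piwl1-1 and the highest of all libraries for Ddx4, at 69.4 normalized counts in each. Without it the mean response of both stages was -0.70 (adjusted p = 0.0032), and control juveniles were lower than control larvae by -0.49 (adjusted p = 0.0374). With all libraries the stage difference of Nano1 was -0.18 (interval -0.76 to 0.39, edgeR adjusted p = 0.562).

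**Figure D3:**
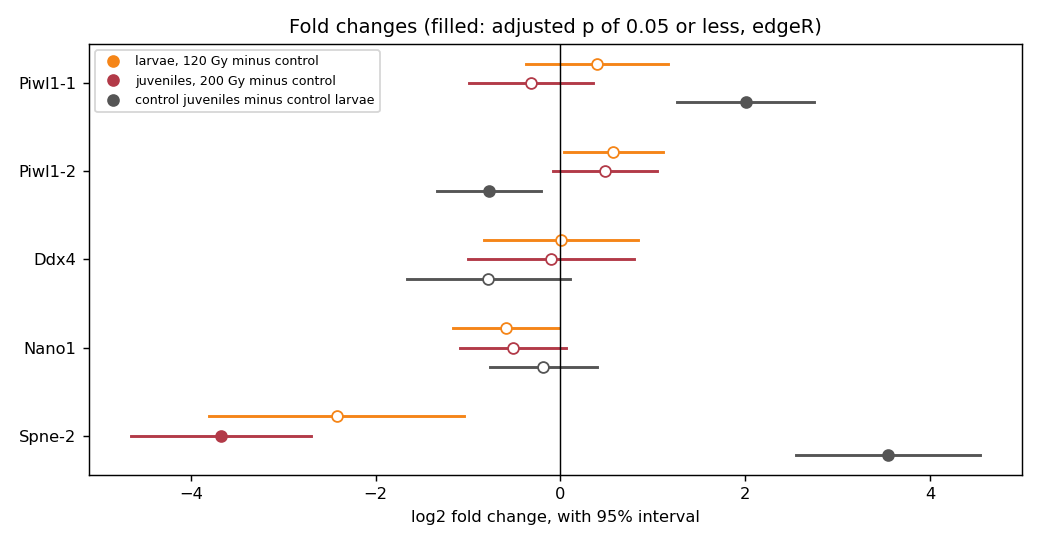
Log2 fold changes of the 5 genes with 95% intervals from edgeR: irradiated minus control larvae, irradiated minus control juveniles, and control juveniles minus control larvae; filled points had an adjusted p of 0.05 or less. Spne-2 has the most negative irradiation responses of the 5 genes and the largest stage difference, and the larval interval of Piwl1-2 lies above 0 without a call.

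Spne-2 (SCA23604, chr4A_Sc2, 13 exons) was counted from 25, 12 and 24 reads in control larvae and only 5, 7 and 3 reads in irradiated larvae. These are 46.1, 13.2 and 24.9 normalized counts in controls and 3.64, 8.43 and 3.21 after irradiation. All irradiated larvae were below all control larvae, which held for 24.2% of the genes tested in one direction or the other. The log2 fold change was -2.42 (interval -3.80 to -1.04), a 5.36-fold lower level, with an unadjusted p of 0.00226 and an edgeR adjusted p of 0.0531. The gene was therefore just outside the threshold in larvae, where the counts were lowest. DESeq2 gave -2.49 (adjusted p = 0.00153), and exon reads alone gave -2.85 in edgeR (adjusted p = 0.0396), both called. Limma voom gave -2.24 and did not call it (adjusted p = 0.208). Of 10 alternatives 5 called it, and of the 6 fits without 1 larval library only that without control larva 2 did (-2.79, adjusted p = 0.0390, against up to 0.165 in the others).

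In juveniles Spne-2 was counted from 184, 325 and 284 reads in controls and 15, 17 and 59 reads after irradiation. The normalized counts were 239, 506 and 195 in controls and 16.2, 23.9 and 30.5 in irradiated juveniles, so that the lowest control was above the highest irradiated library by a wide margin. The log2 fold change was -3.68 ± 0.45 (SE, interval -4.65 to -2.70, edgeR adjusted p = 2.2e-04), a 12.8-fold lower level. It stayed between -3.96 and -3.16 and was called when any 1 of the 6 juvenile libraries was left out. The study had singled out Spne-2 from these same libraries, so this value describes the fall and is not independent evidence of it. The juvenile response was more negative than the larval one by 1.25 on the log2 scale (interval -3.09 to 0.59), a difference that edgeR did not call (adjusted p = 0.451).

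Spne-2 also differed most between the stages. Control juveniles held 313 ± 168 normalized counts (SD, n = 3) against 28.1 ± 16.7 in control larvae, 11.7-fold more, a log2 fold change of 3.55 ± 0.46 (SE, edgeR adjusted p = 2.0e-05). The same control juveniles served the comparison by which the study singled out Spne-2, so this stage difference is not independent of that choice. After irradiation juveniles held 23.5 ± 7.18 normalized counts, a level within the range of the control larvae, and irradiated larvae held 5.09 ± 2.90.

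A second spindle-E gene, Spne-1 (SCA18894, chr19A_Sc2, 5 exons), held 45.4, 304 and 60.5 normalized counts in control juveniles and 29.1, 23.9 and 46.0 in irradiated juveniles. Its mean in controls was carried by control juvenile 2, the library that was also highest for Spne-2, and the other controls lay near the irradiated range. EdgeR called Spne-1 lower after irradiation in juveniles (log2 fold change -1.97, adjusted p = 0.0353). Without control juvenile 2 the value was -0.65 (adjusted p = 0.289), and the call was also lost when any 1 irradiated juvenile was left out (adjusted p = 0.107, 0.110 and 0.0528) and in limma voom (0.148). In control juveniles Spne-1 was above control larvae by a log2 fold change of 2.62 (edgeR adjusted p = 0.00348), or 1.30 without control juvenile 2 (adjusted p = 0.0176). In larvae its response was -0.49 (adjusted p = 0.775).

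Tdrd9 is the mammalian relative of spindle-E, and 3 genes carry that name here. Tdrd9-3 held 154 ± 36.5 normalized counts (SD, n = 3) in control larvae and 84.9 ± 11.9 in control juveniles, lower in juveniles by -0.86 on the log2 scale (edgeR adjusted p = 0.00634). Tdrd9-1 was lower in juveniles by -0.88 (adjusted p = 0.00465), but only 17.5% of its reads were uniquely placed, so that its reads may be shared with a near-identical copy. Neither was called after irradiation: Tdrd9-3 had log2 fold changes of -0.27 in larvae and 0.25 in juveniles, and Tdrd9-1 had -0.27 and 0.18 (edgeR adjusted p from 0.485 to 0.631 for both). Tdrd9-2 had 22 reads in all and was not tested. The Spne genes and the Tdrd9 genes thus lay on opposite sides in the stage comparison.

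Par14-15 and Znfx1-3, which are not on the piRNA list, had patterns close to that of Spne-2. By Pearson correlation of log2 levels over the 12 libraries, among 15050 genes with enough counts, genes near the top of the order included Par14-15 (r = 0.99) and Znfx1-3 (r = 0.98). These correlations describe libraries that share groups, so that any gene high in control juveniles and low in the other groups scores well. Because the genes were chosen for this likeness, their fall in irradiated juveniles follows from the choice. Their fold changes and p-values are descriptions and no independent evidence. Par14-15 is named after a poly(ADP-ribose) polymerase family member and Znfx1-3 after a helicase that in *C. elegans* works in small-RNA inheritance. Znfx1-3 is also on the study's own list of significant juvenile genes. In control juveniles Par14-15 held 2096, 2704 and 2005 normalized counts, and in irradiated juveniles 661, 774 and 837. Znfx1-3 held 2032, 3347 and 1780 in controls and 437, 361 and 569 after irradiation. Control juvenile 2 was the highest library for both genes, as it was for Spne-2, which the choice of genes by likeness to Spne-2 favours.

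In the edgeR fit the juvenile log2 fold changes were -1.58 for Par14-15 (adjusted p = 8.1e-05) and -2.38 for Znfx1-3 (2.2e-04). In larvae they were -0.58 and -0.88 in the same order, with no overlap between the groups and no call (adjusted p = 0.0654 and 0.108). Spne-2 and the summed proliferation genes were both lower after irradiation, without overlap, in each stage. Over all 12 libraries, which also differ by stage, the correlation of Spne-2 with 25 of the proliferation genes had a median of 0.15 (from -0.75 to 0.92), and with 22 other piRNA pathway genes a median of -0.45 (from -0.78 to 0.86, highest for Spne-1). By stage, edgeR called Spne-2 higher in control juveniles. It called 16 of 27 proliferation genes lower and 2 higher there (29.8% and 32.8% of all genes tested). These correlations therefore mix stage with irradiation and do not show whether the genes fell together after irradiation. In control juvenile 2, where Spne-2 was highest, the summed proliferation genes were at their lowest among the control juveniles, 5091 normalized counts against 6176 and 6706.

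**Figure D4:**
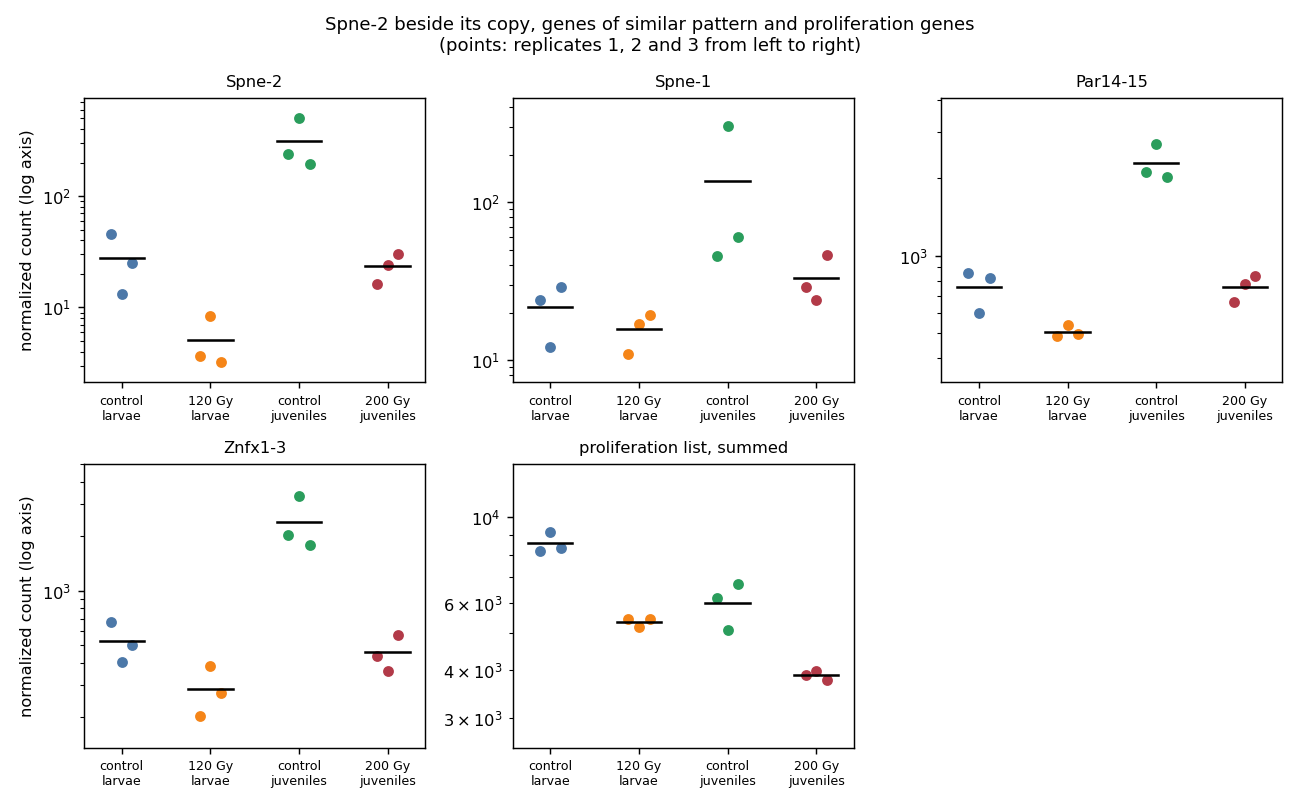
Normalized counts (log axis) of Spne-2, Spne-1, Par14-15, Znfx1-3 and the summed proliferation genes in every library; points are replicates 1, 2 and 3 from left to right and lines are means. Control juvenile 2 is the highest library for Spne-2, Spne-1, Par14-15 and Znfx1-3 and the lowest control juvenile for the proliferation genes. Par14-15 and Znfx1-3 were chosen for their likeness to Spne-2 over these libraries, which favours a shared highest library.

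The other members had their own nearest genes by the same measure. Such genes were chosen for their likeness over all libraries, so their responses to irradiation are no independent evidence. For Piwl1-1 they were Dtx3l-45, Dusty-10 and Ileu-1 (r = 0.98 for each), and for Piwl1-2 Tm41b, Abhdd and Galt1-6 (r from 0.91 to 0.93). Of these, Tm41b was called higher after irradiation in juveniles with a log2 fold change of 0.72 (edgeR adjusted p = 0.0216) and had the same value, 0.72, in larvae (adjusted p = 0.0519). Nano1 was most like Lc7l3 (r = 0.89), Limk1 (r = 0.86) and Ins1a (r = 0.86). Ins1a, named after an insulinoma-associated zinc finger factor and with 1 exon like Nano1, was lower in both irradiated stages, by log2 fold changes of -1.04 in larvae (adjusted p = 0.0436) and -0.88 in juveniles (adjusted p = 0.0288). Ddx4 had weaker matches in Rnf14-2 (r = 0.86), Cpo-2 (r = 0.85) and Fggy (r = 0.85). Among the 5 genes themselves the correlations ran from -0.80 (Piwl1-2 with Spne-2) to 0.56 (Piwl1-1 with Spne-2).

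The wider piRNA pathway gave 32 genes for 36 listed names, of which 29 were tested. After irradiation few of them were called. In larvae edgeR called 0 of 29, against 3.92% of all genes tested. At an unadjusted p under 0.05, 2 of the 29 passed there, as did 4136 of all 20780 genes tested. DESeq2 called 1 of the 29 and limma voom 0. In juveniles Spne-2 and Spne-1 were called lower and Anm5 higher, while 11.1% of all genes tested were called lower and 10.8% higher. The median log2 fold change of the 29 genes was -0.14 in larvae and -0.08 in juveniles, against 0.01 and -0.04 over all genes tested. Without the 4 genes of this list described above, 25 remained, with 1 called lower and 1 higher in juveniles.

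Anm5 is named after the arginine methyltransferase that marks Piwi proteins for binding by Tudor proteins. On average it held 384 normalized counts in control juveniles and rose to 537 after irradiation, with a log2 fold change of 0.48 (edgeR adjusted p = 0.0302). The call was lost when single libraries were left out, in 5 of 6 cases, and with library totals in place of TMM (adjusted p = 0.0525). Its partner Mep50 was at 0.22 in juveniles and was not called (adjusted p = 0.397).

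By stage, edgeR called 12 of the 29 piRNA pathway genes lower and 4 higher in control juveniles and did not call 13, where 29.8% of all genes tested were lower and 32.8% higher, and the median log2 fold change was -0.75, against 0.03 over all genes tested. The lower genes included scaffold proteins with Tudor domains, among them Tdrd6-2 (-1.92, edgeR adjusted p = 6.3e-05), Tdrd5 (-1.62, 8.5e-04) and Tdrd7-1 (-1.46, 8.5e-04). Mael-1, named after maelstrom, which acts in piRNA silencing in flies and mice, was lower by -1.06 (adjusted p = 2.4e-04). The 4 higher genes were Spne-2, Spne-1, Piwl1-1 and Hen1-1, a relative of the methyltransferase that protects the ends of piRNAs (1.08, adjusted p = 0.00192). In TPM the list without the described genes summed to between 137 and 178 in control larvae and between 137 and 161 in control juveniles, so that the sums overlapped.

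**Figure D5:**
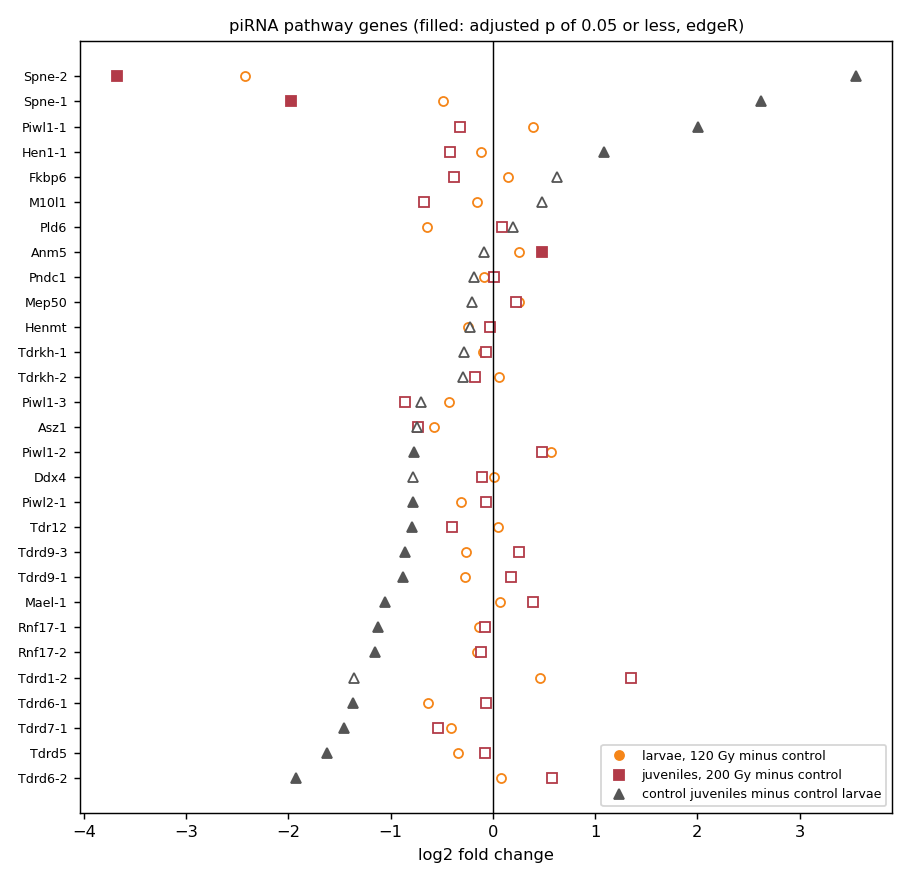
Log2 fold changes of the 29 tested piRNA pathway genes, ordered by the stage difference; circles are irradiated minus control larvae, squares irradiated minus control juveniles, triangles control juveniles minus control larvae, and filled symbols had an edgeR adjusted p of 0.05 or less. The filled squares are Spne-2, Spne-1 and Anm5, no circle is filled, and 12 triangles are filled on the lower side and 4 on the higher side.

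Since the piRNA pathway is known for silencing transposable elements, genes with names of transposon proteins were counted as well. Of 1245 such genes, 427 had enough reads to be tested, and many are near-identical copies among which the counting may have divided reads. In larvae edgeR called 4 lower and 8 higher, and in juveniles 35 lower and 12 higher, with a median log2 fold change in juveniles of -0.23 against -0.04 over all genes. Those called were 2.81% of the list in larvae and 11.0% in juveniles, against 3.92% and 21.9% of all genes tested. Pol2-26 rose in both stages, by log2 fold changes of 1.22 in larvae (edgeR adjusted p = 4.2e-04) and 1.17 in juveniles (1.1e-04). Rtxe-24 fell in juveniles after irradiation, with a log2 fold change of -3.79 (adjusted p = 1.1e-04), from 1269 ± 757 normalized counts (SD, n = 3) in controls to 88.3 ± 33.9. The study's own list of significant juvenile genes also holds Rtxe-24.

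Marker genes of other cell types also differed in the juvenile pools. The summed level of 13 axoneme genes, which build the core of cilia, lay between 36961 and 39703 normalized counts in control juveniles and between 68491 and 81260 in irradiated juveniles. EdgeR called 12 of the 13 higher, against 10.8% of all genes tested. In larvae it called 0 of the 13, against 3.92% of all genes tested. At an unadjusted p under 0.05, 1 of the 13 passed there, as did 4136 of all 20780 genes tested. DESeq2 and limma voom called 0 of the 13 in larvae. The summed levels overlapped there, from 34276 to 38102 in controls and from 33422 to 42880 after irradiation. The part of this rise in the juvenile values of the 5 genes was not tested. Of 16 muscle genes tested, edgeR called 4 lower in juveniles (11.1% of all genes tested) and 1 lower in larvae (2.05%). In larvae 6 passed at an unadjusted p under 0.05, as did 4136 of all 20780 genes tested, and DESeq2 called 4. The summed level of 19 muscle genes did not fall in juveniles. It lay between 21977 and 24394 normalized counts in controls and between 26426 and 29154 after irradiation. In TPM the juvenile sums overlapped, from 2159 to 2369 in controls and from 2155 to 2368 after irradiation. In larvae the sums were 10261 to 12368 normalized counts in controls and 6389 to 10264 after irradiation. Of the 7 neuron genes tested, edgeR called 0 in either stage, against 3.92% of all genes tested in larvae and 21.9% in juveniles. At an unadjusted p under 0.05, 0 of the 7 passed in larvae and 2 in juveniles (4136 and 7247 of all 20780 genes tested). DESeq2 and limma voom each called 0 in larvae and 2 in juveniles.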

How the data were processed

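Total RNA of whole-animal pools was sequenced with a Nugen-Tecan mRNA-seq kit as 75-bp paired reads in a single lane. Per the study's methods the authors mapped reads to the v2.0 genome and counted them with CLC Genomics Workbench. The strand setting was not given in the sources used here. The deposited total counts per gene are whole numbers equal to exon plus intron reads, not normalized. The TPM values were calculated by the authors' software from exon reads before deposit. Reads per library ranged from 7675726 to 26974509, which limits the precision of genes with few reads, and the counts were tested as deposited.

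The analysis used edgeR 4.0.16 under R 4.3.3. Genes with low counts were removed with filterByExpr, given the 4 groups, so that 20780 were tested and 6683 were not. Libraries were normalized by TMM and all 12 were fitted together with 1 mean per group. Quasi-likelihood tests were two-sided, with Benjamini-Hochberg adjustment across all genes tested. The code was tested on simulated data. Intervals have a level of 95%. Replicates of a group correlated at 0.968 to 0.982 and none were duplicates.

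Alternatives were DESeq2 1.42.0 (size factors or the Wald test), limma 3.58.1 voom, library totals, no filter, unique or exon reads, thinning, 6 libraries only, a replicate block, an adjusted p of 0.01, and leaving out each library. The alternatives for Spne-1, Anm5 and Bmi1-2 were added later, with the data already seen. The study's own analysis used DESeq2.

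The 5 genes and the lists (piRNA pathway, germ cell and meiosis, multipotency factors, proliferation, transposable-element-like names, muscle, neuron, axoneme) were chosen with earlier results of these data known. Named genes were the 5 genes, their families, up to 4 called genes of a list per comparison and direction with the largest change (mean of at least 20 normalized counts), and the 3 named genes most like each of the 5; some of the genes this rule names are not reported here. Further genes were chosen after their values were seen. Neighbouring genes were not looked up and no sequences are shown, as coordinates and sequences were not used here.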

Additional observations from a re-analysis of the deposited data

Results flagged for a closer look

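The juvenile response of Par14-15, the gene most like Spne-2, was more negative than its larval response by -1.01 on the log2 scale (edgeR adjusted p = 0.0334, control samples above irradiated samples in both stages). Par14-15 was chosen for its likeness to Spne-2 in these libraries, so its difference is no independent evidence. The response of Bmi1-2, a Polycomb gene of the multipotency list, was lower in juveniles than in larvae by -0.88 (edgeR adjusted p = 0.0499), a difference that limma voom did not call. The median of 13 axoneme genes in the same comparison was 0.96, and edgeR called 11 of the 13 as responding more positively in juveniles, where 3.47% of all genes tested were called. Dose differs with stage in each of these, so the effects of stage and dose cannot be told apart.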

How the results depend on the processing

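Of 450 values of the 5 genes under alternatives, 394 kept their direction and their side of the threshold, 3 lost a call, 19 gained one and 34 changed sign. The calls for Spne-2 in juveniles, in the mean response and by stage, and for Piwl1-1 by stage, held under every alternative run. Those for Spne-2 all use the control juveniles of the comparison by which the study had singled it out. Spne-2 in larvae was called with library totals (-2.36), no filter (-2.43), DESeq2 (-2.49), unique reads (-2.52) and exon reads (-2.85). The mean response of Piwl1-2 was called with library totals (0.55), DESeq2 (0.51), limma voom (0.57) and exon reads (0.58), that of Nano1 with DESeq2 (-0.56), and Nano1 in juveniles with only 6 libraries (-0.49). Values near 0 changed sign: Ddx4 in larvae with DESeq2's size factors (-0.0040), its Wald test (-0.0031) and the replicate block (-0.029), the mean response of Ddx4 with voom (0.022) and thinning (0.020), that of Piwl1-1 with exon reads (-0.058) and thinning (-0.032), and with voom the difference between responses of Piwl1-2 (0.044) and Nano1 (-0.029). The causes were not tested.

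Leaving out 1 library gave ranges for Ddx4 of -0.29 to 0.52 in larvae, -0.38 to 0.16 in juveniles, -0.62 to 0.19 for the difference, -0.19 to 0.21 for the mean and -1.08 to -0.27 by stage. For Nano1 they were -0.89 to -0.22 in larvae, -0.28 to 0.38 for the difference, -0.70 to -0.37 for the mean and -0.49 to 0.17 by stage. For Piwl1-2 they were -0.30 to 0.16 for the difference, 0.45 to 0.65 for the mean and -1.02 to -0.61 by stage, for Piwl1-1 -0.097 to 0.37 for the mean, and for Spne-2 -2.89 to -1.97 in larvae.

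Genes called fell from 814 to 164 in larvae, from 4544 to 2236 in juveniles, from 722 to 10 for the difference and from 4389 to 2114 for the mean at an adjusted p of 0.01. DESeq2 called 1656 in larvae and 1496 for the difference, and 6 libraries alone gave 287 in larvae. Without 1 library the counts were 306 to 589 in larvae, 2974 to 3738 in juveniles and 210 to 789 for the difference. In larvae the piRNA list rose from 0 to 1 called with unique reads, exon reads or DESeq2. The multipotency list went from 2 to 1 with unique reads and to 4 with DESeq2, and the transposable-element-like list from 12 to 20 with DESeq2. Same-numbered control and irradiated libraries did not vary together (r from -0.080 to 0.063), so the numbers were not taken as pairs. The replicate block gave 470 genes for the difference and took the calls of Spne-1 (adjusted p = 0.0758) and Anm5 (0.0504) in juveniles. Low counts limit Spne-2 in larvae and Ddx4 throughout.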

Other observations

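Genes of germ cells and meiosis gave 23 genes for 44 listed names, of which 17 were tested. EdgeR called 0 of them after irradiation in either stage, against 3.92% of all genes tested in larvae and 21.9% in juveniles. At an unadjusted p under 0.05, 3 of the 17 passed in larvae and 1 in juveniles (4136 and 7247 of all 20780 genes tested). DESeq2 and limma voom called 0 of the 17 in both. By stage, edgeR called 7 lower and 1 higher in control juveniles, where 29.8% of all genes tested were lower and 32.8% higher. The lower genes include Prd14-1 and Prd14-2, with 260 reads each, of which 0.0% were uniquely placed. Reads may be shared between this pair, so they may not count as separate genes. Sycp3, named after a protein of the meiotic chromosome axis, was lower by a log2 fold change of -1.55 (edgeR adjusted p = 2.6e-05). The one higher gene was Boll, a relative of the boule RNA-binding protein of male meiosis in flies, with 12.0 normalized counts on average in control larvae and 137 in control juveniles, a log2 fold change of 3.50 (adjusted p = 1.4e-05). Its response to irradiation was 1.21 in larvae (adjusted p = 0.176) and 0.16 in juveniles (0.781). The genes named here were picked from the list after their values were seen.

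The multipotency factors found by name were 82 genes, of which 72 carry the name Lin41. Without those, which were set aside after the names had been seen, 10 genes were left. They include Prd14-1 and Prd14-2, which have no uniquely placed reads and may share theirs. EdgeR called 1 of the 10 lower and 0 higher in irradiated juveniles (11.1% and 10.8% of all genes tested). It called 0 of the 10 in larvae, against 3.92% of all genes tested. The 1 called was Bmi1-2 (-0.64, adjusted p = 0.0104), a call that was lost without control juvenile 3 (-0.54, adjusted p = 0.0548). Klf4 was higher in control juveniles by a log2 fold change of 2.82 (adjusted p = 7.3e-08) and had no called response (-0.15 in larvae and -0.29 in juveniles). Myc-1 had log2 fold changes of -0.47 in larvae (adjusted p = 0.0967) and -0.41 in juveniles (0.0705).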
